A study of Mus musculus with 6 samples.

Results

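Integrins, focal adhesion proteins, catenins and other adhesion receptors were followed in 6 cultures of BCR-ABL transformed mouse pro-B leukaemia cells. The genes were 38 listed symbols, and all 38 were found among the 22099 genes of the table. Described here are the 36 with at least 1 RPKM (reads scaled by transcript length and library size) in at least 2 libraries. The other members, F11r and Esam, whose proteins sit at cell junctions, stayed at 0.2 to 1 RPKM and at 0 to 0.2 RPKM. Polyadenylated RNA was sequenced from C57BL/6 whole bone marrow that had received BCR-ABL p185 and a yellow fluorescent protein by retrovirus at day 0 and had been cultured for 14 days. The marrow was homozygous for loss of Ikaros zinc finger 1 (Ikaros_ZnF1-/-, called the ZnF1 mutant), homozygous for loss of zinc finger 4 (Ikaros_ZnF4-/-, called the ZnF4 mutant) or wild type (wt), and each of these 3 groups had 2 biological replicates. All groups carried the oncogene, so the comparisons concern Ikaros zinc fingers in transformed cells, and no untransformed marrow was analysed here. The labels do not mention sorting of transduced cells, and every library may hold RNA of other marrow cells.

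Integrins are surface receptors made of an alpha and a beta chain that bind matrix proteins or receptors on other cells. Talin and kindlin bind the beta chain from inside the cell and switch the receptor on, vinculin, zyxin and alpha-actinins tie it to actin, and focal adhesion kinase, Src and their adaptors carry the signal inward. Catenins link cadherins to actin, and beta-catenin also acts in Wnt signalling. In the bone marrow, B cell precursors hold on to stromal cells largely through integrins and Cd44, and the lymphoid transcription factor Ikaros, the product of Ikzf1, is known to affect that adhesion in mouse pre-B cells.

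Values are given for replicate 1 and then replicate 2. Ikzf1 itself stood at 101.5 and 116.7 RPKM in ZnF1 mutant cultures, 188.2 and 170.2 in ZnF4 mutant cultures and 89.2 and 85.9 in wt cultures. Its level does not check the labels, because the alleles lack a single zinc finger and the deposited value covers the whole transcript. Ikzf1 rose by 1.02 on the log2(RPKM + 1) scale in the ZnF4 mutant against wt (limma adjusted p = 0.045), and differed by 0.31 in the ZnF1 mutant against wt (adjusted p = 0.67). All 10 B lineage markers, such as Pax5 and Ebf1, were detected in every library, with summed levels of 3605.8 and 3055.9 RPKM in ZnF1 mutant cultures, 3731.4 and 2525.7 in the ZnF4 mutant and 3318 and 2509.3 in wt. Other marrow cell types were represented unevenly. The 12 monocyte and macrophage markers summed to 1074.5 and 1155.6 RPKM in ZnF1 mutant cultures, 404.8 and 428.4 in the ZnF4 mutant and 375.4 and 433.9 in wt, and all 12 were higher in both ZnF1 mutant libraries than in either wt library. The 12 granulocyte markers summed to 3.5 and 1649.6 RPKM for the ZnF1 mutant, 6.7 and 55.2 for the ZnF4 mutant and 537 and 1.2 for wt, so ZnF1 mutant replicate 2 and wt replicate 1 stood apart. The 12 stromal and endothelial markers summed to 257.2 and 106.3, 52.2 and 30.8, and 58.7 and 52.4 RPKM in the same order, with Lum at 0 in all libraries. The platelet and megakaryocyte markers summed to 19.7 to 42.7 RPKM, and the T and NK cell markers to at most 2.3 RPKM, with 4 of 8 at 0 throughout.

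**Figure D1:**
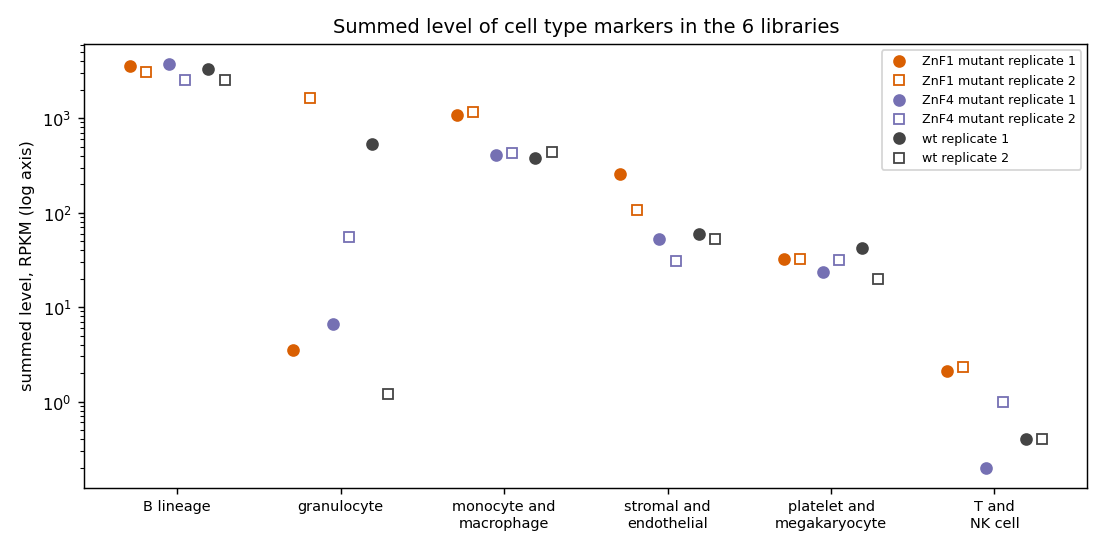
Summed RPKM of 6 lists of cell type markers (log axis) in each library. Filled circles are replicate 1, open squares replicate 2, and colours mark the ZnF1 mutant, the ZnF4 mutant and wt. Monocyte and macrophage markers reached 1074.5 and 1155.6 RPKM in both ZnF1 mutant libraries and at most 433.9 in the other libraries.

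The members covered a wide range of levels in these cells. The 5 highest in wt were Parvg, a parvin of blood cells, the beta-catenin gene Ctnnb1, the selectin ligand Selplg, the alpha-actinin gene Actn4 and the blood cell kindlin Fermt3, with means of 154, 140, 130, 117 and 95.5 RPKM. The lowest in wt were Itgb7, Bcar1, Parva and Src, with means of 0.65, 0.7, 0.8 and 0.8 RPKM. Bcar1, Itgb7 and Parva reached 1 RPKM in both ZnF1 mutant libraries alone, so passing the filter made them higher there. Outside the ZnF1 mutant Src reached 1 RPKM in wt replicate 1 alone, so it too needed the ZnF1 mutant to pass. Just inside the filter stood Bcar1 at 3.7 and 1.2 RPKM in ZnF1 mutant cultures, 0.7 and 0.3 in ZnF4 mutant cultures and 0.9 and 0.5 in wt cultures, and just outside stood F11r at 0.5 and 0.2 RPKM in ZnF1 mutant cultures, 1 and 0.7 in ZnF4 mutant cultures and 0.7 and 0.2 in wt cultures.

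**Figure D2:**
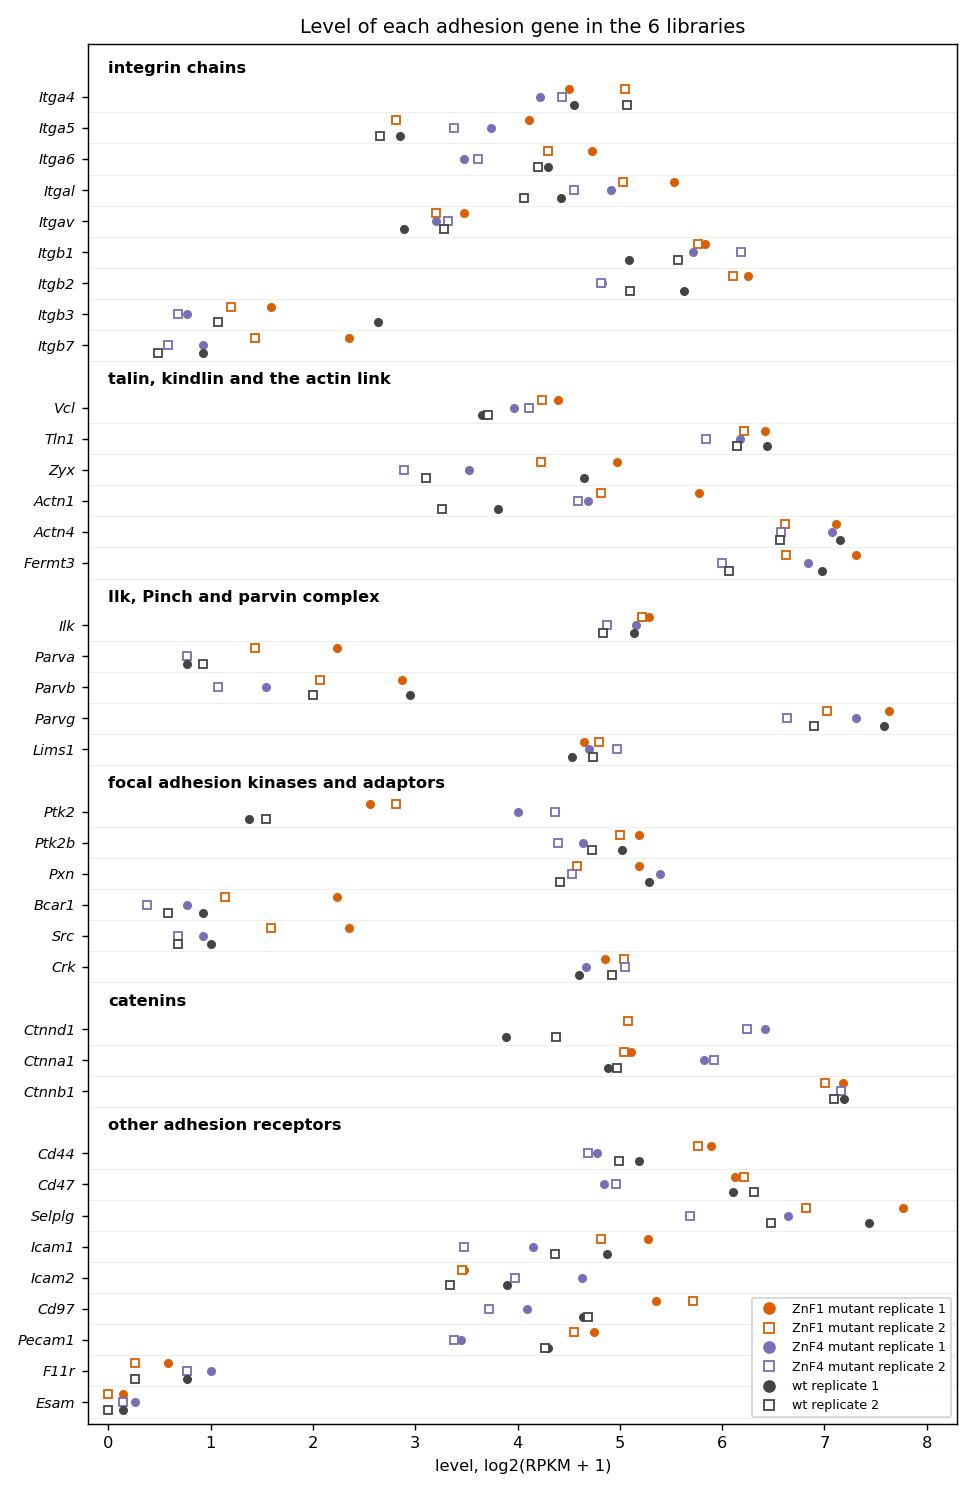
Level of each of the 38 members in the 6 libraries on the log2(RPKM + 1) scale, grouped by role. Filled circles are replicate 1, open squares replicate 2, and equal values overlap. Ptk2 and Ctnnd1 are highest in the ZnF4 mutant libraries and lowest in wt, whereas Ctnnb1 lies at about the same level in all 6.

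In the ZnF1 mutant against wt, adhesion genes were mostly at higher values, but no member passed the test without the replicate number in the model. The median log2 difference of the 36 members was 0.35, against −0.01 over all 11345 genes tested. Of the 36 members 30 were above 0, against 5400 of the 11345 genes. Both ZnF1 mutant libraries lay above both wt libraries for 16 members (44.4%, against 18.3% of all genes), and both lay below for 0 members (against 12.7%). With limma on log2(RPKM + 1), 0 of 36 members were called at an adjusted p under 0.05, as were 0% of all genes. An unadjusted p under 0.05 was found for 11 members (30.6%, against 11.3% of all genes). With the replicate number as a block, limma called 14 members higher (38.9%, against 10.4% of all genes) and 0 lower (against 2.88%), with 13.2% of all genes called in either direction. Bcar1, Itgb7 and Parva had to be higher, and all of them enter the median and are among the 30 and the 16. Itgb7 and Parva are also among the 11, and Itgb7 among the 14. Src, which needed the ZnF1 mutant to pass the filter, enters the median too and is among the 30, the 16, the 11 and the 14. With at least 5 RPKM required in at least 2 libraries, which leaves all of these genes out, the median was 0.27, against −0.03 over all genes. All 12 monocyte and macrophage markers and 8 of 12 stromal and endothelial markers were higher in both ZnF1 mutant libraries too. Their part in these differences was not tested, and in bulk RNA fewer cells of a type and less RNA per cell cannot be told apart.

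In the ZnF4 mutant against wt, a few members changed strongly and in both directions. Focal adhesion kinase (Ptk2), p120-catenin (Ctnnd1) and alpha-catenin (Ctnna1) rose, and Cd47 fell. These were 3 members called higher (8.33%, against 1.43% of all genes) and 1 called lower (2.78%, against 1.3%) of 36, with 2.72% of all genes called in either direction. The median log2 difference of the members was −0.06, against 0.04 over all genes. With the replicate block, limma called 5 members higher (13.9%, against 8.02% of all genes) and 10 lower (27.8%, against 7.92%). An unadjusted p under 0.05 was found for 10 members (27.8%, against 11.7% of all genes). Both ZnF4 mutant libraries lay above both wt libraries for 9 members (25%, against 17.8%) and below for 11 (30.6%, against 13.8%). Monocyte and macrophage marker sums overlapped between these groups, at 404.8 and 428.4 RPKM in the ZnF4 mutant and 375.4 and 433.9 in wt. Of the 12 markers, 4 were higher in both ZnF4 mutant libraries and 2 lower. Stromal and endothelial sums did not overlap, at 52.2 and 30.8 RPKM in the ZnF4 mutant and 58.7 and 52.4 in wt. Of those 12 markers, 3 were lower and 2 higher. The part of these cells in the differences was not tested.

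In ZnF4 relative to ZnF1 mutants, 3 of 36 members were called higher (8.33%, against 1.61% of all genes) and 5 lower (13.9%, against 3.75%), with 5.37% of all genes called in either direction. The members that rose were Ptk2, Ctnnd1 and Ctnna1, and those that fell were Itgb2, Cd44, Cd47, Cd97 and Pecam1. The median log2 difference was −0.55, against 0.04 over all genes, and both ZnF4 mutant libraries lay below both ZnF1 mutant libraries for 22 members (61.1%, against 21.8%) and above for 4 (11.1%, against 21.7%). With the replicate block 4 were called higher (11.1%, against 15.9% of all genes) and 20 lower (55.6%, against 19.2%), and 35.1% of all genes were called in either direction. Bcar1, Itgb7 and Parva had to be lower here, and are 3 of these 20 and 3 of the 22 above. Src, which also needed the ZnF1 mutant to pass the filter, is in both counts. All of these genes also enter the median of −0.55. With at least 5 RPKM required in at least 2 libraries, which leaves them out, the median was −0.36, against 0.06 over all genes. An unadjusted p under 0.05 was found for 17 members (47.2%, against 19.3% of all genes), Bcar1, Itgb7, Parva and Src among them. All 12 monocyte and macrophage markers and 9 of 12 stromal and endothelial markers were also lower in both ZnF4 mutant libraries than in either ZnF1 mutant library, and their part in these differences was not tested. This comparison shares its libraries with the others, so its values are no separate evidence for them.

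**Figure D3:**
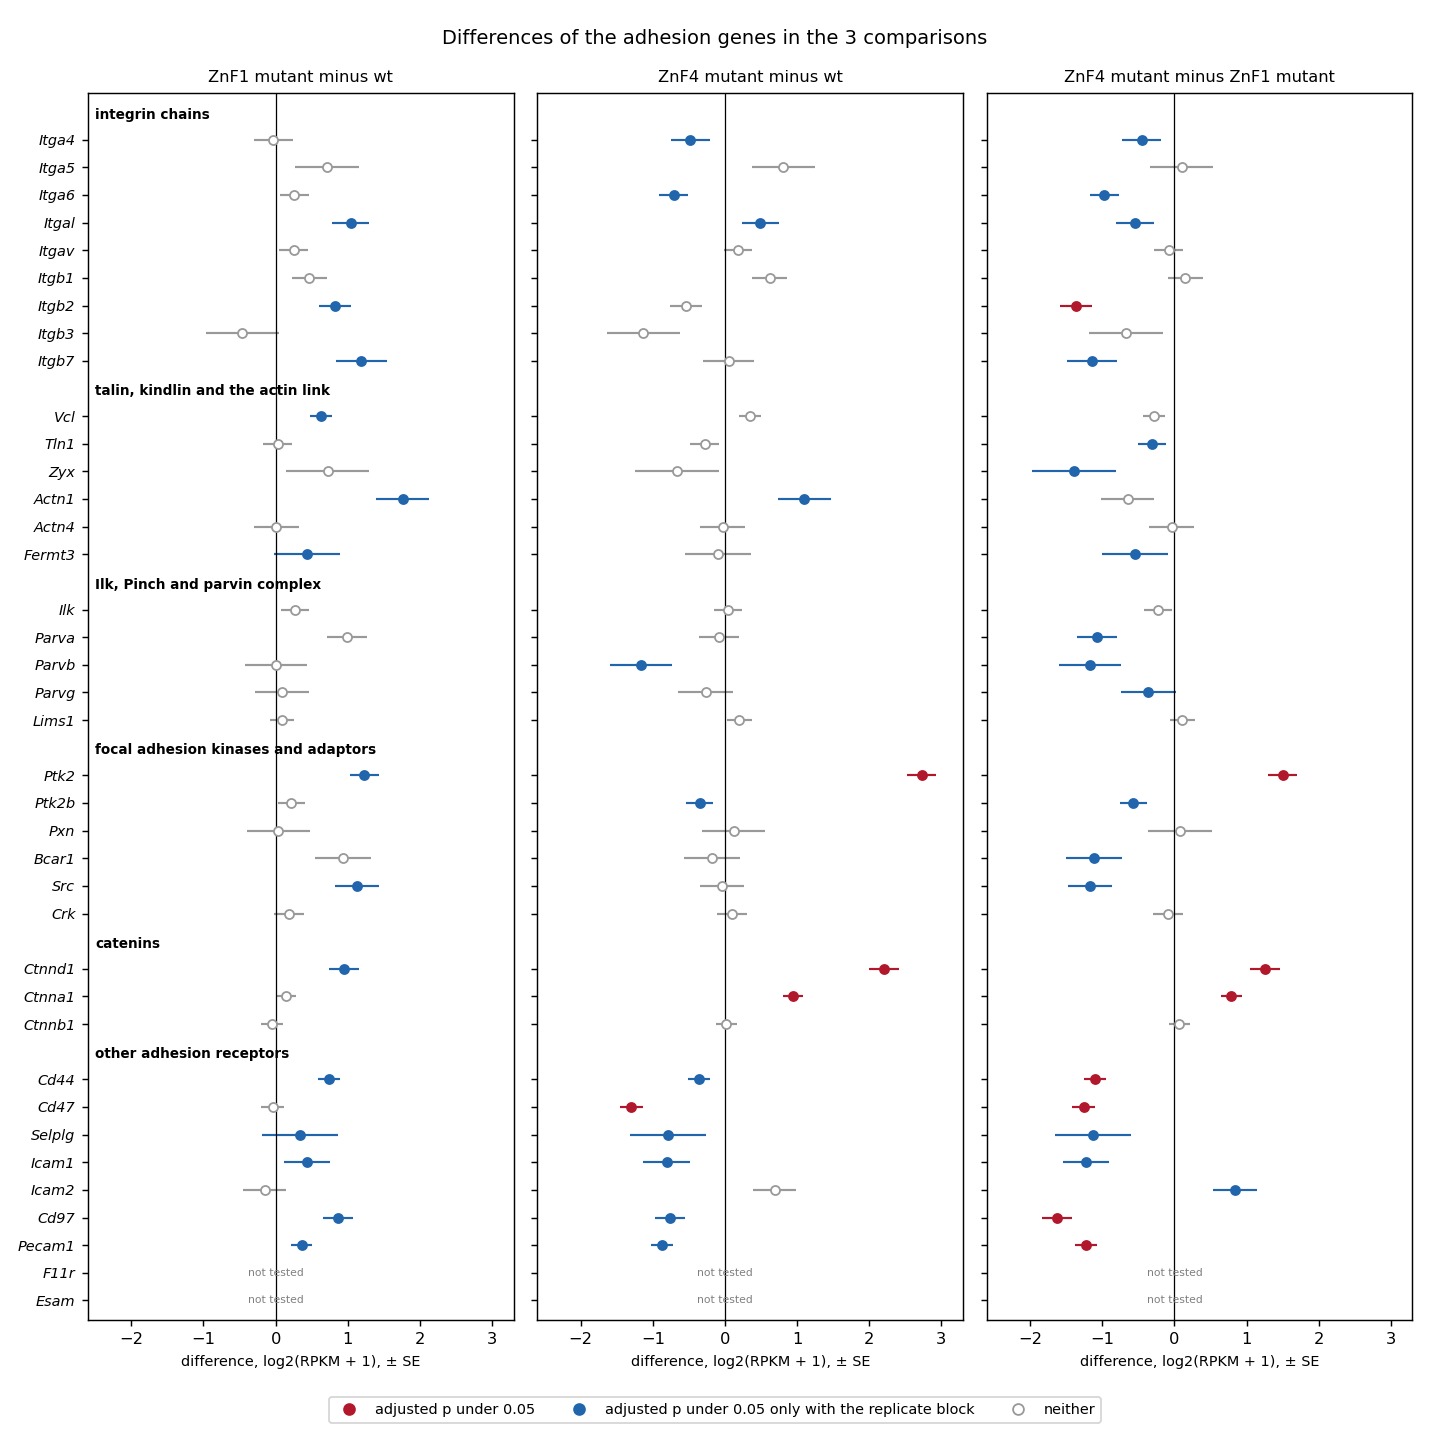
Difference of each member on the log2(RPKM + 1) scale in the 3 comparisons, with the standard error of the fit without the replicate block as bars. Red points passed an adjusted p of 0.05 in that fit, blue points only with the replicate block, and open points in neither. Ptk2 and Ctnnd1 lie farthest to the right in the ZnF4 mutant minus wt, at 2.73 and 2.2, and Cd47 farthest to the left, at −1.3.

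The largest difference of any member was that of Ptk2, the focal adhesion kinase, which is recruited to engaged integrins and phosphorylates partners such as paxillin. It stood at 4.9 and 6 RPKM in ZnF1 mutant cultures, 15 and 19.6 in ZnF4 mutant cultures and 1.6 and 1.9 in wt cultures, and the 3 groups did not overlap. Its mean was 5.45 ± 0.778 RPKM in ZnF1 mutant cultures, 17.3 ± 3.25 RPKM in ZnF4 mutant cultures and 1.75 ± 0.212 in wt (SD, n = 2). Ptk2 rose by 2.73 on the log2(RPKM + 1) scale in the ZnF4 mutant against wt (SE 0.2, adjusted p = 0.0075), or 9.89-fold as a ratio of mean RPKM. In ZnF4 relative to ZnF1 mutants it rose by 1.5 (adjusted p = 0.025). Its difference from wt in the ZnF1 mutant was 1.23, with an adjusted p of 0.1, or 0.0053 with the replicate block.

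The related kinase Ptk2b (Pyk2), which is the form best known in blood cells, was more abundant than Ptk2 in every library. It stood at 35.4 and 31 RPKM in ZnF1 mutant cultures, 24 and 20.1 in ZnF4 mutant cultures and 31.4 and 25.4 in wt cultures. Its log2 difference was −0.35 in the ZnF4 mutant against wt and −0.57 in ZnF4 relative to ZnF1 mutants, and both passed the threshold only with the block (adjusted p = 0.033 and 0.0053, or 0.66 and 0.18 without it). The 2 kinases thus lay on opposite sides of wt in the ZnF4 mutant, Ptk2 above and Ptk2b below, and the difference between them was not tested.

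Src, a kinase that acts with focal adhesion kinase, stood at 4.1 and 2 RPKM in ZnF1 mutant cultures, 0.9 and 0.6 in ZnF4 mutant cultures and 1 and 0.6 in wt cultures. Bcar1, the scaffold p130Cas that Src phosphorylates, followed a like order, at the low levels given above. Both genes were highest in ZnF1 mutant replicate 1, next in ZnF1 mutant replicate 2, and at 1 RPKM or less in the other 4 libraries. With the block Src was called in the ZnF1 mutant against wt (1.13, adjusted p = 0.018, 0.2 without the block) and in ZnF4 relative to ZnF1 mutants (−1.17, adjusted p = 0.0075, 0.1 without it). Bcar1 had to be higher in the ZnF1 mutant to pass the filter, so its differences are not read as results. Outside the ZnF1 mutant Src reached 1 RPKM in wt replicate 1 alone. Src thus also passed only with the help of the ZnF1 mutant, and its calls are not read as results either. The adaptors paxillin (Pxn) and Crk were called in no comparison by either fit. Pxn stood at 35.3 and 23 RPKM in ZnF1 mutant cultures, 41.1 and 22.1 in ZnF4 mutant cultures and 37.9 and 20.3 in wt cultures and Crk at 28 and 32 RPKM in ZnF1 mutant cultures, 24.5 and 32.2 in ZnF4 mutant cultures and 23.3 and 29.3 in wt cultures. Within every group, Pxn was higher in replicate 1 and Crk in replicate 2.

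Among the catenins, p120-catenin (Ctnnd1) and alpha-catenin (Ctnna1) rose in the ZnF4 mutant, while beta-catenin (Ctnnb1) was not called. Ctnnd1 holds cadherins at the cell surface, and stood at 32.5 and 32.9 RPKM in ZnF1 mutant cultures, 84.8 and 74.8 in ZnF4 mutant cultures and 13.8 and 19.7 in wt cultures, a mean of 32.7 ± 0.283 RPKM in ZnF1 mutant cultures, 79.8 ± 7.07 RPKM in ZnF4 mutant cultures and 16.8 ± 4.17 in wt (SD, n = 2). The groups did not overlap, and the ZnF4 mutant libraries were the highest. Ctnnd1 rose by 2.2 against wt (adjusted p = 0.013) and by 1.26 against the ZnF1 mutant (adjusted p = 0.035). Its difference from wt in the ZnF1 mutant was 0.95 (adjusted p = 0.14, or 0.027 with the block).

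Ctnna1, which connects beta-catenin with actin, stood at 33.6 and 31.9 RPKM in ZnF1 mutant cultures, 55.5 and 59.4 in ZnF4 mutant cultures and 28.5 and 30.4 in wt cultures, a mean of 32.8 ± 1.2 RPKM in ZnF1 mutant cultures, 57.5 ± 2.76 RPKM in ZnF4 mutant cultures and 29.4 ± 1.34 in wt (SD, n = 2). Both ZnF4 mutant libraries lay far above the other 4. It rose by 0.94 against wt and by 0.79 against the ZnF1 mutant (adjusted p = 0.039 and 0.043). After quantile normalization neither call held (adjusted p = 0.064 and 0.065). Ctnnb1 stood at 143.7 and 127.8 RPKM in ZnF1 mutant cultures, 141.8 and 142.1 in ZnF4 mutant cultures and 145 and 135.7 in wt cultures, with ranges that overlapped between all groups. Its difference in the ZnF4 mutant against wt was 0.02 (adjusted p = 1 without and 0.91 with the block).

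Ptk2 and Ctnnd1 are each read from several RefSeq transcripts, and the ratio between their transcripts overlapped between groups. For Ptk2 the row of the 3628-base transcript held 76.5% of the summed RPKM, and it exceeded the row of the 4446-base transcript by ratios of 2.77 and 3.29 in ZnF1 mutant cultures, 2.66 and 4.03 in ZnF4 mutant cultures and 3 and 3.75 in wt. For Ctnnd1 the 5312-base row held 65.2%, and its ratio to the 5064-base row next in level was 1.85 and 1.95, 1.78 and 2.15, and 1.8 and 2.25 in the same order. Replicate 2 had the higher ratio in each group, and the ranges of the 3 groups overlapped for both genes. For Ptk2 in wt the 4446-base row was at 0.4 RPKM in both libraries, so rounding to 0.1 RPKM leaves its ratios imprecise. In the other 11 members with several rows, the highest row held 94.2% or more. The sources used here do not give how reads of overlapping transcripts were assigned.

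Promoters of called members from a RefSeq table (build GRCm38.p6) are shown, with those on 1 chromosome left out. They are shown since these members differ between the Ikaros mutants and Ikaros binds DNA with the core GGGAA. Each runs from 250 bases before to 50 after a gene start. Capitals mark GGGAA on either strand, whose reverse complement is TTCCC. The table held 24 of the 38 members, and those of Ctnnd1, Cd44 and Cd47 are printed from the 8 called without the block. The coordinates are chr2:84658928-84659227, strand −, for Ctnnd1, chr2:102901616-102901915, strand −, for Cd44 and chr16:49855404-49855703, strand +, for Cd47. For Ctnnd1 and Cd47, which have 2 starts each, the one listed first is printed.
Ctnnd1: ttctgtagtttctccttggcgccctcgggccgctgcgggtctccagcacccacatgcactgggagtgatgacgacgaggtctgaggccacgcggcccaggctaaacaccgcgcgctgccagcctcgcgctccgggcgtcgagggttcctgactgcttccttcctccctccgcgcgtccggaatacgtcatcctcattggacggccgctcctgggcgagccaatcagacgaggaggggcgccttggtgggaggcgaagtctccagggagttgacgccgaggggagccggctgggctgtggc
Cd44: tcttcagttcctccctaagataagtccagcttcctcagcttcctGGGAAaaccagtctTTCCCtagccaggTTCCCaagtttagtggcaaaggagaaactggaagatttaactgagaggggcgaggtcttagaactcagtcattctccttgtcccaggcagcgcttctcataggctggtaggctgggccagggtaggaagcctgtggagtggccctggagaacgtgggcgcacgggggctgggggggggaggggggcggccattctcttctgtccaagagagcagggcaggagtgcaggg
Cd47: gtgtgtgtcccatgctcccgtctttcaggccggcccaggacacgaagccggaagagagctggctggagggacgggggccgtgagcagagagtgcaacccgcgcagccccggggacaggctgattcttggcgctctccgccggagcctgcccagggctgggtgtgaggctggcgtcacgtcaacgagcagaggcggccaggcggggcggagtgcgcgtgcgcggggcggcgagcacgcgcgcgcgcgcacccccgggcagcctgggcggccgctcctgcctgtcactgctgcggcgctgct
The Cd44 promoter held 1 match on the printed strand and 2 on the other, and the printed promoters of Ctnnd1 and Cd47 held 0. Matches in the second promoter of these 2 genes are not given. Over all genes, 62.7% of 32851 promoters held the motif on either strand, against 22 of the 32 promoters of members (68.8%). These are matches of letters only, and the data include no binding of Ikaros.

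Among the 9 integrin chains, the leukocyte beta chain Itgb2 gave the 1 call made without the block, while 5 of the 9 were called lower in ZnF4 relative to ZnF1 mutants with it (55.6%, against 19.2% of all genes), Itgb7 among them. Itgb2 stood at 75.2 and 68 RPKM in ZnF1 mutant cultures, 27.3 and 27.2 in ZnF4 mutant cultures and 48.4 and 33.2 in wt cultures, a mean of 71.6 ± 5.09 RPKM in ZnF1 mutant cultures, 27.2 ± 0.0707 RPKM in ZnF4 mutant cultures and 40.8 ± 10.7 in wt (SD, n = 2). Both ZnF1 mutant libraries lay above both wt libraries, and both ZnF4 mutant libraries lay below them. Itgb2 fell in ZnF4 relative to ZnF1 mutants by 1.36 (log2, SE 0.22, adjusted p = 0.032). Its difference from wt in the ZnF1 mutant was 0.82 (adjusted p = 0.2, or 0.024 with the block), and in the ZnF4 mutant against wt −0.54 (adjusted p = 0.43, or 0.061 with the block). Itgb2 also forms a macrophage integrin with Itgam, which stood at 20.9 and 34.4 RPKM in ZnF1 mutant cultures, 6.7 and 11.1 in the ZnF4 mutant and 11.2 and 8.7 in wt. Itgam was highest in ZnF1 mutant replicate 2, the library with the highest granulocyte marker sum (1649.6 RPKM), whereas Itgb2 was highest in ZnF1 mutant replicate 1. The part of macrophage and granulocyte RNA in the Itgb2 differences was not tested.

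Itgal, the alpha chain that joins Itgb2 to bind Icam receptors, stood at 45.3 and 31.6 RPKM in ZnF1 mutant cultures, 29.1 and 22.5 in ZnF4 mutant cultures and 20.4 and 15.7 in wt cultures. Both mutants lay above wt, the ZnF1 mutant farthest. With the block Itgal was called in the ZnF1 mutant against wt (1.04, adjusted p = 0.0053), in the ZnF4 mutant relative to wt (0.49, adjusted p = 0.015) and in ZnF4 relative to ZnF1 mutants (−0.55, adjusted p = 0.0074). Without the block the adjusted p was 0.18, 0.64 and 0.35. Against wt in the ZnF4 mutant, Itgal thus lay higher and Itgb2 lower, and the difference between the chains was not tested.

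The laminin-binding chain Itga6 stood at 25.4 and 18.6 RPKM in ZnF1 mutant cultures, 10.1 and 11.2 in ZnF4 mutant cultures and 18.6 and 17.4 in wt cultures. Both ZnF4 mutant libraries were below the other 4. Its log2 difference in the ZnF4 mutant was −0.71 against wt and −0.97 against the ZnF1 mutant, with block adjusted p of 0.034 and 0.0087 (0.2 and 0.058 without the block). Itga4, which pairs with Itgb1 to bind Vcam1 and fibronectin on marrow stroma, stood at 21.7 and 32.2 RPKM in ZnF1 mutant cultures, 17.6 and 20.6 in ZnF4 mutant cultures and 22.4 and 32.5 in wt cultures. The ZnF4 mutant libraries were again the lowest, by less than the gap between wt replicates. Its differences were −0.48 against wt and −0.45 against the ZnF1 mutant (block adjusted p = 0.041 and 0.028, or 0.71 and 0.48 without it). Itgb7, the other partner of Itga4, was at 4.1 and 1.7 RPKM in ZnF1 mutant cultures, 0.9 and 0.5 in ZnF4 mutant cultures and 0.9 and 0.4 in wt cultures. It passed the filter through the ZnF1 mutant alone and had to be higher there, so its differences are not read as results.

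Itgb1, the most widely shared beta chain, was called in no comparison by either fit. It stood at 55.8 and 53.5 RPKM in ZnF1 mutant cultures, 51.4 and 71.5 in ZnF4 mutant cultures and 33.1 and 46.3 in wt cultures, so that both mutants lay above both wt libraries. The fibronectin receptor chain Itga5 stood at 16.3 and 6 RPKM in ZnF1 mutant cultures, 12.4 and 9.4 in ZnF4 mutant cultures and 6.2 and 5.3 in wt cultures, with ZnF1 mutant replicate 1 far above replicate 2. The chain Itgav, a receptor chain for fibronectin and vitronectin, stood at 10.1 and 8.2 RPKM in ZnF1 mutant cultures, 8.2 and 9 in ZnF4 mutant cultures and 6.4 and 8.7 in wt cultures. Itgb3, the beta chain of platelets, stood at 2 and 1.3 RPKM in ZnF1 mutant cultures, 0.7 and 0.6 in ZnF4 mutant cultures and 5.2 and 1.1 in wt cultures and was highest in wt replicate 1. Its platelet partner Itga2b was also highest in that library, at 3.1 RPKM, against 0.1 to 0.5 in the other 5.

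Of the genes that link integrins to actin, none was called without the block, and with it Actn1, Vcl and Fermt3 were called higher in the ZnF1 mutant against wt and Actn1 in the ZnF4 mutant against wt. Actn1, an alpha-actinin that bundles actin filaments, stood at 53.7 and 27.1 RPKM in ZnF1 mutant cultures, 24.8 and 23.1 in ZnF4 mutant cultures and 13 and 8.6 in wt cultures. All 4 mutant libraries lay above both wt libraries. ZnF1 mutant replicate 1, the highest for Actn1, also had the highest stromal and endothelial marker sum, 257.2 RPKM. The part of stromal RNA in the Actn1 difference of the ZnF1 mutant was not tested. With the block Actn1 was called in the ZnF1 mutant against wt (1.76, adjusted p = 0.011) and in the ZnF4 mutant relative to wt (1.1, adjusted p = 0.025), with 0.13 and 0.29 without it. Its relative Actn4 stood at 137.7 and 96.9 RPKM in ZnF1 mutant cultures, 133.3 and 94.6 in ZnF4 mutant cultures and 140.9 and 93.6 in wt cultures, and the ranges of its 3 groups overlapped.

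Vinculin (Vcl), which is recruited to stretched talin, stood at 20 and 17.9 RPKM in ZnF1 mutant cultures, 14.6 and 16.3 in ZnF4 mutant cultures and 11.6 and 12.1 in wt cultures. The groups did not overlap, with the ZnF1 mutant highest and wt lowest. The difference in the ZnF1 mutant against wt was 0.63 (block adjusted p = 0.02, 0.17 without it). Fermt3, the kindlin that activates integrins of blood cells, stood at 157.7 and 97.5 RPKM in ZnF1 mutant cultures, 113.6 and 63 in ZnF4 mutant cultures and 125.1 and 66 in wt cultures. The replicates of each group differed by more than the group means did, and it was called with the block in the ZnF1 mutant against wt (0.44, adjusted p = 0.033, 1 without it) and in ZnF4 relative to ZnF1 mutants (−0.55, adjusted p = 0.0096, 0.64 without it). Without wt replicate 2 its difference in the ZnF1 mutant against wt was −0.01.

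Zyxin (Zyx), a protein of mature adhesions, stood at 30.4 and 17.7 RPKM in ZnF1 mutant cultures, 10.5 and 6.4 in ZnF4 mutant cultures and 24.1 and 7.6 in wt cultures. Talin (Tln1) stood at 84.8 and 73.1 RPKM in ZnF1 mutant cultures, 71.1 and 56.4 in ZnF4 mutant cultures and 85.5 and 69.7 in wt cultures. In both genes replicate 1 was higher in every group, and both ZnF4 mutant libraries lay below both ZnF1 mutant libraries. That comparison was called with the block for Zyx (−1.39, adjusted p = 0.012, 0.28 without it) and for Tln1 (−0.31, adjusted p = 0.028, 0.52 without it).

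Integrin-linked kinase (Ilk), Pinch (Lims1) and a parvin form a complex at the integrin tail. Ilk stood at 38 and 36.1 RPKM in ZnF1 mutant cultures, 34.8 and 28.4 in ZnF4 mutant cultures and 34.1 and 27.5 in wt cultures and Lims1 at 24.1 and 26.7 RPKM in ZnF1 mutant cultures, 24.9 and 30.4 in ZnF4 mutant cultures and 22.2 and 25.6 in wt cultures, and neither was called in any comparison by either fit. The parvins differed among themselves. Parvg stood at 197.2 and 129.4 RPKM in ZnF1 mutant cultures, 157 and 98.1 in ZnF4 mutant cultures and 190.8 and 118.2 in wt cultures, Parvb at 6.3 and 3.2 RPKM in ZnF1 mutant cultures, 1.9 and 1.1 in ZnF4 mutant cultures and 6.7 and 3 in wt cultures and Parva at 3.7 and 1.7 RPKM in ZnF1 mutant cultures, 0.7 and 0.7 in ZnF4 mutant cultures and 0.7 and 0.9 in wt cultures. Parvb was lowest in the ZnF4 mutant, where both libraries were below the other 4, and Parva was highest in the ZnF1 mutant, through which alone it passed the filter.

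Parvb was called with the block in the ZnF4 mutant against wt (−1.17, adjusted p = 0.0073, 0.36 without it) and against the ZnF1 mutant (−1.17, adjusted p = 0.005, 0.22 without it). In ZnF4 relative to ZnF1 mutants, Parvg differed by −0.36 (block adjusted p = 0.019, 0.72 without it). Parvb and Parvg are neighbouring genes in the RefSeq annotation.

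Surface receptors outside the integrin family held the largest share of members called lower in the ZnF4 mutant. Of 7 tested, 1 fell against wt without the block (14.3%, against 1.3% of all genes) and 6 were called lower with it (85.7%, against 7.92%). Relative to the ZnF1 mutant, 4 fell without the block (57.1%, against 3.75%) and 6 were called lower with it (85.7%, against 19.2%). Cd47, the receptor that tells macrophages not to engulf a cell and that associates with integrins, stood at 68.7 and 73.1 RPKM in ZnF1 mutant cultures, 27.8 and 30.2 in ZnF4 mutant cultures and 68 and 78.5 in wt cultures, a mean of 70.9 ± 3.11 RPKM in ZnF1 mutant cultures, 29 ± 1.7 RPKM in ZnF4 mutant cultures and 73.2 ± 7.42 in wt (SD, n = 2). Both ZnF4 mutant libraries lay far below the other 4, and the ZnF1 mutant and wt overlapped. Cd47 fell in the ZnF4 mutant by 1.3 against wt and by 1.26 against the ZnF1 mutant (log2, SE 0.16 each, adjusted p = 0.023 and 0.022). Its difference from wt in the ZnF1 mutant was −0.04 (adjusted p = 1 without and 0.73 with the block).

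Cd44, the hyaluronan receptor, stood at 58.4 and 53.2 RPKM in ZnF1 mutant cultures, 26.4 and 24.7 in ZnF4 mutant cultures and 35.3 and 30.8 in wt cultures, a mean of 55.8 ± 3.68 RPKM in ZnF1 mutant cultures, 25.5 ± 1.2 RPKM in ZnF4 mutant cultures and 33 ± 3.18 in wt (SD, n = 2). The ZnF1 mutant libraries were above both wt libraries and the ZnF4 mutant libraries below them. It fell by 1.1 (SE 0.15) in ZnF4 relative to ZnF1 mutants (adjusted p = 0.027). The adhesion G protein-coupled receptor Cd97, which binds Cd55, stood at 39.8 and 51.5 RPKM in ZnF1 mutant cultures, 16 and 12.2 in ZnF4 mutant cultures and 24 and 24.7 in wt cultures, a mean of 45.6 ± 8.27 RPKM in ZnF1 mutant cultures, 14.1 ± 2.69 RPKM in ZnF4 mutant cultures and 24.4 ± 0.495 in wt (SD, n = 2). It fell by 1.63 (SE 0.21) in the same comparison (adjusted p = 0.024). Pecam1, a receptor that binds itself on the next cell, stood at 25.8 and 22.4 RPKM in ZnF1 mutant cultures, 9.9 and 9.4 in ZnF4 mutant cultures and 18.6 and 18.3 in wt cultures, a mean of 24.1 ± 2.4 RPKM in ZnF1 mutant cultures, 9.65 ± 0.354 RPKM in ZnF4 mutant cultures and 18.5 ± 0.212 in wt (SD, n = 2). It fell by 1.23 (SE 0.15, adjusted p = 0.021). All 3 genes had the order ZnF1 mutant, wt, ZnF4 mutant, with no overlap.

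Against wt these 3 receptors were called with the block in both mutants. In the ZnF1 mutant, Cd44 differed by 0.74, Cd97 by 0.87 and Pecam1 by 0.36, with block adjusted p of 0.0074, 0.038 and 0.044 (0.13, 0.17 and 0.47 without the block). In the ZnF4 mutant they differed by −0.36, −0.76 and −0.87, with block adjusted p of 0.03, 0.047 and 0.0036 (0.49, 0.19 and 0.058 without it). Macrophages also express these receptors. All 12 monocyte and macrophage markers were higher in both ZnF1 mutant libraries than in either wt library. Between the ZnF4 mutant and wt their sums overlapped, with 4 of the 12 higher in both ZnF4 mutant libraries and 2 lower. The part of macrophage RNA in these differences was not tested.

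**Figure D4:**
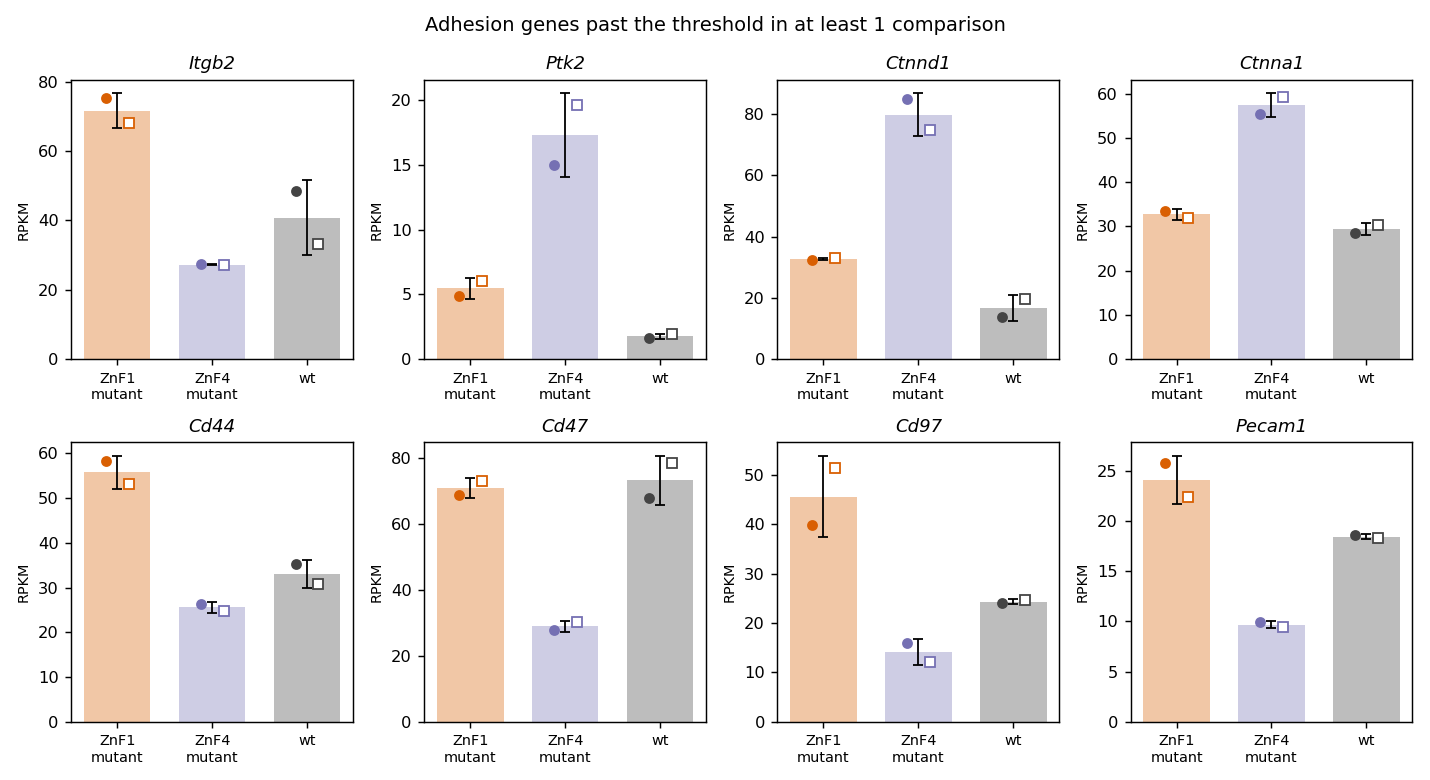
RPKM of the 8 members called without the replicate block in at least 1 comparison. Bars are the mean of 2 libraries with the SD, filled circles replicate 1 and open squares replicate 2. Ptk2, Ctnnd1 and Ctnna1 are highest in the ZnF4 mutant, and Itgb2, Cd44, Cd47, Cd97 and Pecam1 are lowest there.

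The remaining receptors depended more on the replicate number. Selplg, the ligand of P-selectin, stood at 217.3 and 112.1 RPKM in ZnF1 mutant cultures, 99.3 and 50.6 in ZnF4 mutant cultures and 172.6 and 88.3 in wt cultures. Icam1, the counter-receptor of Itgal and Itgb2, stood at 37.7 and 27.2 RPKM in ZnF1 mutant cultures, 16.8 and 10.1 in ZnF4 mutant cultures and 28.3 and 19.6 in wt cultures. In both genes replicate 1 was above replicate 2 in every group, and the ZnF4 mutant was lowest within each replicate number. Selplg was called lower with the block in the ZnF4 mutant against wt (−0.79, adjusted p = 0.0032) and against the ZnF1 mutant (−1.13, adjusted p = 0.0012), with 0.82 and 0.34 without it. Icam1 was also called lower with the block in these comparisons (−0.81 and −1.23, adjusted p = 0.0052 and 0.0014), with 0.44 and 0.11 without it.

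In the ZnF1 mutant against wt, Selplg and Icam1 were called higher with the block (0.34 and 0.43, adjusted p = 0.038 and 0.036), with 1 and 0.95 without it. The Selplg difference was −0.14 without ZnF1 mutant replicate 1 and −0.14 without wt replicate 2. Icam2, the other Icam member, stood at 10.1 and 10 RPKM in ZnF1 mutant cultures, 23.8 and 14.7 in ZnF4 mutant cultures and 13.9 and 9.1 in wt cultures. Its difference against wt was 0.69 (adjusted p = 0.5, or 0.056 with the block). It was called higher with the block against the ZnF1 mutant (0.84, adjusted p = 0.02, 0.21 without it).

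A list of 100 other genes of integrin adhesion and cadherins was read from the same fits, and 59 of them were tested. In the ZnF1 mutant against wt, 0 were called without the block (0% of all genes), and with it 22 were called higher (37.3%, against 10.4% of all genes) and 1 lower (1.69%, against 2.88%). Of the 22, Vcam1 passed the filter through the ZnF1 mutant alone and had to be higher. Enah, Cdh11 and Tgfb1i1, also among the 22, needed the ZnF1 mutant to pass. Among the largest differences were 3 integrin ligands. Fibronectin (Fn1) stood at 76.6 and 69.5 RPKM in ZnF1 mutant cultures and 16.2 and 30.4 in wt, thrombospondin (Thbs1) at 107.5 and 55.2 in ZnF1 mutant cultures and 29 and 23.2 in wt, and osteopontin (Spp1) at 556.5 and 488 in ZnF1 mutant cultures and 143.1 and 228.4 in wt. Both ZnF1 mutant libraries lay above both wt libraries for each. Their log2 differences were 1.67, 1.54 and 1.52. Without the block the SE was 0.33, 0.34 and 0.33 and the adjusted p 0.12, 0.14 and 0.14. With the block the SE was 0.23, 0.19 and 0.23 and the adjusted p 0.017, 0.013 and 0.02. Macrophages and stromal cells are known sources of these proteins, and their part in the differences was not tested. Fblim1, a filamin-binding adhesion protein, and Itgam differed by 1.51 and 1.36 (block adjusted p = 0.0099 and 0.036, or 0.095 and 0.18 without it).

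In the ZnF4 mutant against wt, 2 of the 59 rose (3.39%, against 1.43% of all genes) and 1 fell (1.69%, against 1.3%), and with the block 5 were called in each direction (8.47%, against 8.02% and 7.92% of all genes). Dock1, a Rac exchange factor that works with Crk and Bcar1, stood at 12.7 and 13 RPKM in the ZnF4 mutant and 0.5 and 0.5 in wt, and at 1.3 and 1.5 in the ZnF1 mutant. It rose by 3.21 against wt (SE 0.14, adjusted p = 0.0039) and by 2.53 against the ZnF1 mutant (adjusted p = 0.0075). Like Ptk2, Dock1 had the order ZnF4 mutant, ZnF1 mutant, wt with no overlap. Cdh5, the cadherin of endothelial cells and a partner of p120-catenin, rose to 2.1 and 1.3 RPKM in the ZnF4 mutant, against a listed 0 in both wt libraries (adjusted p = 0.027). Cdh5 passed the filter through the ZnF4 mutant alone, so it had to be higher there.

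Cass4, a relative of Bcar1, fell in the ZnF4 mutant to 0.7 and 0.7 RPKM, against 2.3 and 2.2 in wt (−0.93, SE 0.14, adjusted p = 0.037). Evl, an actin regulator of the Ena/VASP family, stood at 49.9 and 41.8 RPKM in the ZnF4 mutant and 112.5 and 91.5 in wt (−1.13, block adjusted p = 0.0015, 0.052 without it). The integrin regulators Rassf5 and Cyth1 differed by −0.66 and −0.64 (block adjusted p = 0.005 and 0.0066, or 0.12 and 0.34 without it).

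In ZnF4 relative to ZnF1 mutants, 2 of the 59 rose (3.39%, against 1.61% of all genes) and 12 fell (20.3%, against 3.75%). With the block 6 were higher (10.2%, against 15.9%) and 32 lower (54.2%, against 19.2%). Besides Dock1 and Cdh5, which rose, the genes that fell included Itgb5, Cass4, Enah, Evl, Lyn, Fblim1, Skap2, Fyb, Cdh11, Vcam1 and Thbs1. Vcam1, and Fermt2 among the 32, passed the filter through the ZnF1 mutant alone and had to be lower here, as Cdh5 had to be higher. Outside the ZnF1 mutant, Enah and Cdh11 reached 1 RPKM in wt replicate 2 alone, so they also needed the ZnF1 mutant to pass. The same holds for Cdh1, Tgfb1i1 and Lamb1 among the 32, each with a single wt library at that level. The largest falls among those named were those of Thbs1 (−2.17, adjusted p = 0.032), Fblim1 (−1.68, adjusted p = 0.026) and Fyb, a leukocyte adaptor (−1.54, adjusted p = 0.017). With the block Tnc, the matrix protein tenascin C, differed by −1.8 (adjusted p = 0.017, 0.079 without it). Fyb, Lyn and Skap2 are genes of leukocytes, myeloid cells included, and Cdh11 and Tnc of stromal cells. The sums of the monocyte and macrophage list and of the stromal list were lower in both ZnF4 mutant libraries than in either ZnF1 mutant library, those of the granulocyte list overlapped, and their part in these differences was not tested.

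All calls without the block rested on 2 libraries a group. When any 1 of the ZnF4 mutant or wt libraries was left out, 0 of 36 members were called in the ZnF4 mutant against wt, and when either ZnF1 mutant library was left out, Ptk2 alone was called (adjusted p = 0.032 without replicate 1 and 0.031 without replicate 2). The log2 differences with 1 library left out stayed at 2.54 to 2.91 for Ptk2, 1.96 to 2.45 for Ctnnd1, 0.89 to 0.99 for Ctnna1 and −1.41 to −1.2 for Cd47. In ZnF4 relative to ZnF1 mutants, 0 members were called without any 1 of the ZnF1 or ZnF4 mutant libraries, 2 without wt replicate 1 and 4 without wt replicate 2.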

How the data were processed

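RNA from 6 cultures was analysed, 2 in each of 3 genotypes. The authors deposited RPKM values to 1 decimal for 26531 RefSeq transcripts, made with TopHat and bedtools on mm9 per the submitters' processing notes, which give no versions. Strand and the handling of shared reads are not given in these sources. The depth is unknown, because rounding to 0.1 RPKM hides the value of 1 read, and low genes are therefore imprecise. Rows were summed by symbol to 22099 genes. A row without a gene was left out, and 39 of 40 symbols that read as numbers were replaced by the gene of their RefSeq accession.

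Tests covered 11345 genes, those that reached 1 RPKM in 2 or more libraries, on log2(RPKM + 1) with limma 3.58.1 in R 4.3.3, with an intensity trend, 3 group means and Benjamini-Hochberg adjustment over all of them. A call is an adjusted p under 0.05. The prior had 2.32 degrees of freedom beside 3 residual ones. On this scale the change of low genes is understated.

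The labels give each group replicates 1 and 2. Across the tested genes, deviations of same-numbered libraries correlated at 0.5002 between the ZnF1 mutant and wt, 0.7539 between the ZnF4 mutant and wt and 0.7148 between ZnF4 and ZnF1 mutants. The pairing comes from these values, as the labels do not say what the number marks. A fit with the number as a block is given beside each result whose call it changes.

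All listed members are described, with the called and largest differences in full, and of the other pathway genes those called and the 6 largest with the block. A gene among these is not reported here by name. The members and lists were chosen with earlier results of these data known. Alternatives were other filters, pseudocounts, scalings, transcript choices, variance priors and sets of libraries.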

Additional observations from a re-analysis of the deposited data

How the results depend on the processing

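With the replicate block, 14 members were called in the ZnF1 mutant against wt, 15 in the ZnF4 mutant against wt and 24 in ZnF4 relative to ZnF1 mutants, and among all genes 1502, 1809 and 3979. Without a filter on low values 4 members were called between the mutants, and 199 genes in the ZnF1 mutant against wt. Median centring called 1 gene in the ZnF1 mutant against wt. With at least 5 RPKM required, 176 genes were called in the ZnF4 mutant against wt and 323 between the mutants. With the 4 libraries of a comparison alone, 1 member and 86 genes were called in the ZnF4 mutant against wt, and 2 members and 234 genes between the mutants. Without ZnF1 mutant replicate 2 and wt replicate 1, the libraries with most granulocyte transcripts, 0 members and 0 genes were called in either of these comparisons, and the fit had 1 residual degree of freedom. There Fermt3 and Selplg differed by 1.24 and 1.29 in the ZnF1 mutant against wt. The only ZnF1 mutant library left in that fit was replicate 1, and the only wt library was replicate 2. Genotype and replicate number therefore cannot be told apart in these 1.24 and 1.29. For both genes, replicate 1 was higher than replicate 2 within every group. Leaving out 1 library at a time gave 0 to 1 members and 0 to 88 genes in the ZnF4 mutant against wt, and 0 to 4 members and 0 to 262 genes between the mutants. In the ZnF1 mutant against wt it turned Fermt3 to −0.01 without wt replicate 2, and Selplg to −0.14 without ZnF1 mutant replicate 1 and to −0.14 without wt replicate 2. These fits have fewer libraries, and the cause of the other changes was not tested. Ctnna1 in the ZnF4 mutant against wt lost its call with quantile normalization (adjusted p = 0.064) and with median centring (adjusted p = 0.053), and between the mutants with quantile normalization (adjusted p = 0.065).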
